A study of Mus musculus with 5 samples.

Results

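Translation initiation and elongation factors are the soluble proteins that bring ribosomes to mRNAs and move them along the coding sequence. Here their own mRNAs were followed through an in vitro binding experiment with a nuclear RNA-binding protein. The members were taken by name. A probe set, a group of short oligonucleotides that reports 1 transcript, was included when its array annotation held exactly 1 gene symbol and that symbol began with Eif or Eef and a digit. This gave 155 of 45037 probe sets, for 58 of 18193 genes. Initiation factors made up 133 probe sets of 47 genes, and elongation factors with their modifying enzymes made up 22 probe sets of 11 genes. Another 8 probe sets carried an Eif or Eef symbol together with further symbols and were left out, so such genes as Eef1g were not analysed here.

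RNA from mouse brain was offered in vitro to MA-Brent-1, an mRNA export factor related to REF and Aly that some sample names call REFP2. In the deiminated group (n = 2) the RNA was eluted from protein in which arginines had been converted to citrulline, in the non-deiminated group (n = 2) from the unconverted protein, and 1 input array held the starting RNA with no binding step. No genotype, strain, age, sex or further treatment of the mice is given in the sources used here, nor is the protein's source or the amount of RNA eluted. All 5 arrays share the brain RNA, the Affymetrix mouse array and biotin labelling, and the bound samples describe binding outside the cell. Only 1 sample name speaks of a biological repeat, so the p-values reflect only how far these samples vary, and that variation may be technical.

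Initiation begins when eIF1, eIF1A, eIF3, eIF5 and the eIF2 complex that carries the initiator tRNA assemble on the small ribosomal subunit. The eIF4 factors bind the cap of an mRNA, unwind its leader and bring that subunit to it, and phosphorylation of eIF2 or the 4E-binding proteins hold the process back. During elongation eEF1A delivers aminoacyl-tRNAs, the eEF1B complex recharges eEF1A with GTP, and eEF2 drives translocation. In neurons both steps are regulated at synapses, and eEF1A2 replaces eEF1A1 as neurons mature.

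Many mRNAs of the translation machinery begin with an unbroken run of pyrimidines, which is the feature for which this gene class is known at the sequence level. Promoter sequences from RefSeq (build GRCm38.p6) were matched by Entrez gene identifier for 47 of the 58 genes, at 62 annotated start sites. In a window of 40 bases, with 20 on each side of the start, a run of at least 8 bases that are C or T was searched on the transcript strand only. At least 1 start with such a run was annotated for 13 of the 47 genes (27.7%), against 18.4% of all 27025 genes with a promoter sequence. The windows of 6 genes are shown because they cover the paralogue pairs Eef1a1 with Eef1a2 and Eif2s3x with Eif2s3y, an eIF3 subunit and the translocase. Capitals mark the run. A match, or the lack of one, describes the letters at an annotated start that may be imprecise.
Eef1a1, chr9:78481705-78481744, minus strand: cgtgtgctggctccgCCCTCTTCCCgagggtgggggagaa
Eef1a2, chr2:181156996-181157035, minus strand: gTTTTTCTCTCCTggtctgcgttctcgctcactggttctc
Eif2s3x, chrX:94212632-94212671, minus strand: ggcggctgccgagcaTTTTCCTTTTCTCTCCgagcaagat
Eif2s3y, chrY:1010575-1010614, plus strand: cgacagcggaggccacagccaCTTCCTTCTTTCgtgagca
Eif3f, chr7:108934395-108934434, plus strand: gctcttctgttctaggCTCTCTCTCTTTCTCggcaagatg
Eef2, chr10:81176611-81176650, plus strand: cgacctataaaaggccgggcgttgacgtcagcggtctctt
The longest runs measured 10 bases for Eef1a1, 16 for Eif2s3x and 15 for Eif3f, and these 3 span the annotated start. The run of 12 bases in Eif2s3y begins at the transcript's base 2, and the run of 12 bases in Eef1a2 ends before the start. The Eef2 window held no run of 8 bases or more. Its last bases are all C or T, however, and a run that goes on past the window would be missed. Counting only runs that cover the first transcribed base left 5 of the 47 genes (10.6%), against 4.59% of all genes.

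The values are the signal intensities deposited by the authors, in arbitrary units on a linear scale that is comparable between arrays for 1 probe set but not between probe sets. Where groups are not repeated by name, signals stand in the order deiminated replicates 1 and 2, non-deiminated replicates 1 and 2, then input. Differences below are differences of log2(signal + 4.18), which understate the change of low signals, and errors after ± are standard errors from limma. A probe set was kept for testing when its log2 signal, averaged over all arrays, lay at or above the 40th percentile, and 122 member probe sets of 56 genes passed, 107 of them for initiation and 15 for elongation. Eif4a3 and Eef2kmt had no kept probe set. Of the 122, 5 passed only with the help of the input array, so the kept probe sets are not a neutral sample of the members. A probe set past adjusted p = 0.05 (limma, Benjamini-Hochberg over all 27022 kept probe sets) is called.

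The input array stood apart from the bound arrays in several measures. Its median signal over all probe sets was 102, against 29.9 to 41.5 on the bound arrays. Hybridisation controls, added in fixed amount, averaged 17.04 on the log2 scale in the input and 10.08 to 13.04 on the bound arrays. The 3′ to 5′ signal ratio was 234 against 29.8 to 55.6 for actin and 2.71 against 17.4 to 31.9 for Gapdh. On the bound arrays the neuronal and astrocyte markers met the brain label. The summed signal of 5 neuronal markers was 10600 to 11800 on the bound arrays and 3050 in the input, and that of 4 astrocyte markers 6840 to 9430 and 2370. Oligodendrocyte markers summed to 11000 to 42400 and 32000, microglial markers to 314 to 440 and 385, and endothelial markers to 541 to 797 and 488. Of 4 liver, heart and muscle markers, 0 exceeded the median of the bound arrays, and they summed to 40.2 to 82.7 there and to 887 in the input. On the input array Alb (284), Apoa1 (173) and Ckm (377) exceeded its median of 102, and Myh6 (53.1) did not. The neuronal marker Tubb3 (8.56) lay below that median and the other neuronal markers above it. In such a bulk RNA pool, fewer cells of a type and less RNA per cell cannot be told apart. These measures move with bound against input, where array and group cannot be told apart, and their part in the results was not tested.

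**Figure D1:**
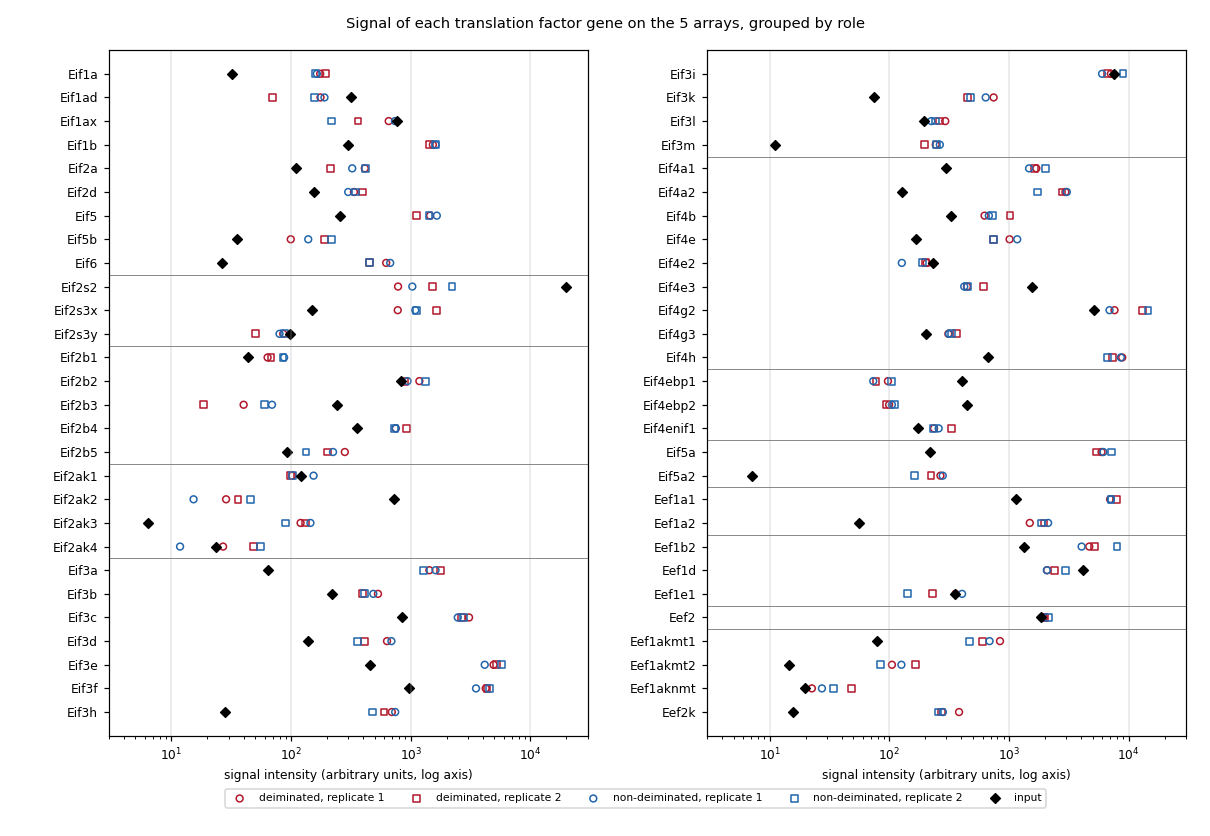
Signal intensity in arbitrary units (log axis) of the probe set that stands for each of the 56 genes on the 5 arrays, in rows by role with lines between roles, circles and squares for replicates 1 and 2 (red deiminated, blue non-deiminated) and black diamonds for the input. Each row is to be read along itself, and the input lies outside the range of the 4 bound arrays for 52 genes.

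The comparison of bound RNA with input asks which mRNAs were recovered with the protein. Per gene, with the probe set of the highest mean log2 signal standing for it, 33 of 56 translation factor genes were called higher in the bound RNA (58.9%), 6 were called lower (10.7%) and 17 were neither, with a median difference of 1.36. Over all 13055 genes measured the same way 31.6% were called higher and 24.8% lower, with a median of 0.12. These directions are those of the probe set that stands for the gene. As 4 of the 5 arrays in its mean are bound, this choice can favour probe sets that are high in bound RNA. The same choice was made for all genes, and its effect on the shares was not tested. Of the 33 higher genes 6, and of the 6 lower genes 2, had probe sets called both ways, and without such genes 27 of 48 were higher and 4 lower. The highest differences were those of Eef1a2, the neuronal and muscle form of eEF1A, at 4.96 ± 0.35 and Eif5a, which helps ribosomes through difficult peptide sequences, at 4.78 ± 0.39. The 6 lower genes were Eif2s2, Eif2ak2, Eif2b3, Eif4e3, Eif4ebp1 and Eif4ebp2, and each of them turned positive when arrays were scaled to the hybridisation controls. Under that scaling all 56 genes had positive differences, with wide errors, and only Eif4h and Eif5a were still called higher. The 8 genes with a negative difference that did not pass turned positive after median centring, and of the 33 higher genes Eif2b4 and Eif4b turned negative under cyclic loess and Eif2d and Eif4e when the median of a gene's probe sets was taken.

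Counted by probe set, 53 of 122 passed as higher (43.4%), 23 as lower (18.9%) and 46 neither, with a median of 0.66. Over all 27022 probe sets the shares were 26.8% higher and 29.8% lower, with a median of −0.20. Members tended to be bright, and brightness moved with the difference on the whole array. Of the brightest 6756 on the array 54% were called higher and 7.7% lower, and the 57 members there gave 37 (64.9%) and 2 (3.51%). Of the dimmest 6756, 6.04% were higher and 48.4% lower, and the 16 members gave 1 (6.25%) and 7 (43.8%). Within these classes of brightness the member shares therefore lay closer to the background than over the whole array. Scaling changed the split of calls: 69.7% of the member calls were higher as deposited, 79.5% after quantile normalisation (66 higher, 17 lower), 96.2% after median centring (77 and 3), 68.3% after cyclic loess (43 and 20) and 100% after scaling to the hybridisation controls (2 and 0). The share was 79.4% with a stricter signal filter. Over all probe sets the shares moved likewise, from 47.3% as deposited to 63.7% (quantile), 88.5% (median centring), 54.7% (cyclic loess), 100% (controls) and 63.1% (stricter filter).

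**Figure D2:**
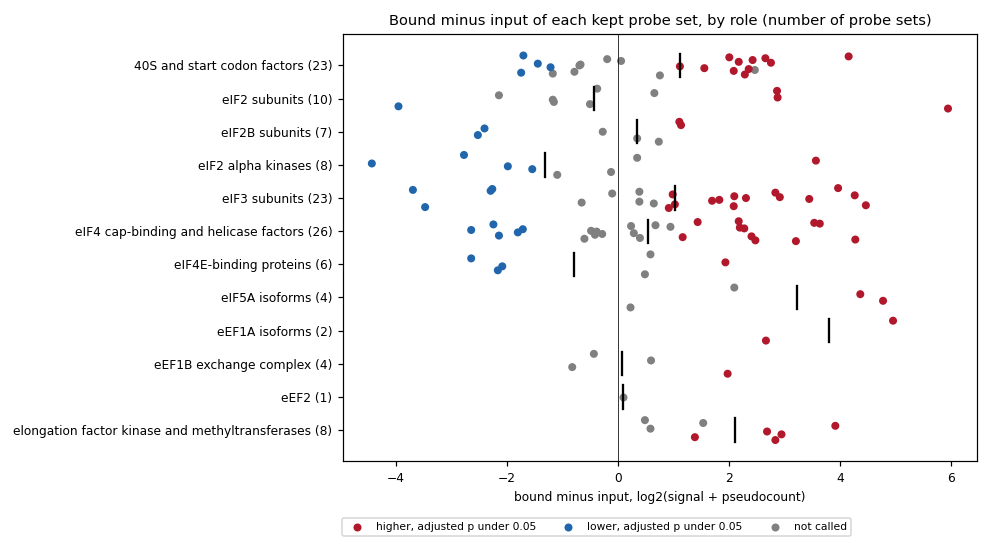
Bound minus input on the log2(signal + pseudocount) scale for the 122 kept probe sets, 1 point each, in rows by role with the number of probe sets, black bars for row medians, red for called higher, blue for called lower and grey for neither. Red points occur in every row except that of eEF2, and blue points occur in initiation rows only, eIF5A excepted.

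Elongation factors stood with 8 of 15 kept probe sets called higher (53.3%) and 0 lower, at a median of 1.54. Over all kept probe sets 26.8% were higher and 29.8% lower. By gene, 6 of 10 were higher (60%), at a median of 2.33, against 31.6% and 0.12 over all genes. Dim probe sets of Eef1d, Eef2, Eef1aknmt and Eef2kmt that were not kept had every bound array under the input. Both eEF1A genes were higher. Eef1a1, the general form, gave 6990 and 7940 with the deiminated protein, 7100 and 7110 with the non-deiminated protein and 1140 in the input. Eef1a2 gave 1490 and 1960, then 2120 and 1870, and 55.3 in the input. For both genes the bound arrays lay close together and far above the input, with differences of 2.67 ± 0.43 (limma adjusted p = 3.17e-04) and 4.96 ± 0.35 (adjusted p = 5.82e-07). The 95% intervals, 1.75 to 3.59 and 4.21 to 5.71, did not overlap. Each gene had only 1 probe set, however, and probe sets of 1 gene spanned a median of 2.56 where there were several. The gap is therefore not shown to be one between the genes. The pyrimidine run of Eef1a1 spans the annotated start and that of Eef1a2 lies before it, and a link to the differences was not tested.

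The eEF1B complex gave a mixed picture. Eef1b2, the subunit that exchanges the nucleotide on eEF1A, had 4680 and 5160 with the deiminated protein, 4040 and 7980 with the non-deiminated and 1340 in the input, and was higher by 1.98 ± 0.46 (limma adjusted p = 0.00351, lost under cyclic loess, where the difference was 0.46). Eef1d, a further exchange subunit, had 2080 and 2380, 2070 and 2940, and 4140 on the input, a difference of −0.82 ± 0.39 (adjusted p = 0.0881). Its bound signals all lay below the input, yet its second kept probe set had a difference of 0.60 ± 0.42. Eef1e1, a scaffold protein of the synthetase complex named after this family, spread from 141 to 405 on the bound arrays around an input of 353, at −0.43 ± 0.51.

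Eef2 had the smallest difference among the elongation factors. It gave 1950 and 2000 with the deiminated protein, 1870 and 2120 with the non-deiminated and 1860 in the input. The difference of 0.09 ± 0.36 had a 95% interval of −0.68 to 0.86, and it was −0.98 after quantile normalisation, −1.36 after cyclic loess and 1.55 after median centring. Its inhibitory kinase did not share this profile. Eef2k, which phosphorylates eEF2 and slows elongation, had 382 and 274, 280 and 255, and 15.5 in the input, a difference of 3.92 ± 0.41 (limma adjusted p = 1.24e-05). 2 further Eef2k probe sets were positive without passing, at 0.49 and 1.54.

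The methyltransferases of eEF1A, which modify its lysines or its amino terminus, were called higher for 2 of 3 measured genes. Eef1akmt1 had 840 and 600, 687 and 470, and 78.6 in the input, and all 3 of its probe sets passed, between 1.39 and 2.95. Eef1akmt2 had 105 and 164, 126 and 83.9, and 14.5 on the input, at 2.69 ± 0.55 (limma adjusted p = 0.00173). Eef1aknmt, a dim gene, ran from 22.5 to 48.4 on the bound arrays against 19.7 and did not pass, at 0.59 ± 0.83.

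Among the 107 probe sets of initiation factors 45 passed as higher (42.1%) and 23 as lower (21.5%), at a median of 0.59. By gene, 27 of 46 were higher (58.7%) and 6 lower (13%), at a median of 1.15. Over all kept probe sets 26.8% were higher and 29.8% lower, and over all genes 31.6% and 24.8%. The counts of each role below are to be read beside these shares. The factors of the small subunit and start codon, which read the AUG and control subunit joining, had 7 of 9 genes higher and 0 lower. By probe set, 11 of 23 were called higher and 4 lower. Eif6, which keeps the large subunit from joining too early, had 623 and 451 with the deiminated protein, 673 and 452 with the non-deiminated and 26.2 in the input. It led this role at 4.16 ± 0.39 (limma adjusted p = 4.50e-06), while a second Eif6 probe set was called lower, at −1.70. Eif5, the GTPase-activating protein for eIF2, followed with 1450 and 1120, 1650 and 1420, and 255 on the input, at 2.43 ± 0.35, and Eif1b, a paralogue of the start codon factor eIF1, with 1530 and 1430, 1610 and 1620, and 298, at 2.36 ± 0.34. In the probe sets that stand for these 3 genes, the bound arrays lay above the input. Eif1a (2.29), Eif5b (2.01), Eif2a (1.56) and Eif2d (1.12, not passing without deiminated replicate 2 at 1.07) were also called higher. The remaining 2 did not pass: Eif1ax had 654 and 362, 738 and 219, and 761 on the input, at −0.78 ± 0.54, and Eif1ad had 176 and 70, 190 and 158, and 319, at −1.17 ± 0.50 (adjusted p = 0.0582). Eif1ad passed as lower when deiminated replicate 1, non-deiminated replicate 1 or non-deiminated replicate 2 was left out, at −1.50, −1.24 and −1.11, and Eif1ax passed without non-deiminated replicate 1, at −1.21. A second Eif1ax probe set was called higher, at 2.09 ± 0.39 (adjusted p = 0.00101), and another had 2.47 ± 1.08 without passing. A second Eif1ad probe set was called lower, at −1.74 (adjusted p = 0.0219). Further probe sets of Eif2a (−1.21) and Eif2d (−1.44) were also called lower.

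The eIF2 complex, whose subunits hold the initiator tRNA, moved in different directions. Eif2s2, the beta subunit, had 783 and 1530 with the deiminated protein, 1030 and 2210 with the non-deiminated protein and 20000 in the input. This probe set was lower in bound RNA by −3.95 ± 0.48 (limma adjusted p = 4.02e-05). Another probe set of the same gene gave 884 and 600, 866 and 524, and only 7.25 on the input, a difference of 5.95 ± 0.41 (adjusted p = 5.51e-07). The direction counted for this gene is therefore that of the probe set that stands for it. The X-linked gamma subunit Eif2s3x had 778 and 1630, 1090 and 1120, and 149 on the input, at 2.87 ± 0.41 (adjusted p = 1.21e-04). Its Y-linked copy Eif2s3y had 85.9 and 50.1, 80 and 88, and 97, at −0.37 ± 0.55, and quantile normalisation (1.01) and cyclic loess (0.14) also turned its sign. Both copies have pyrimidine runs near their starts, and probes that match both of these near-identical copies would not tell them apart.

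The eIF2B complex recycles eIF2 by exchanging its nucleotide, and 2 of its 5 genes were called higher and 1 lower. Eif2b4, the delta subunit, had 749 and 927, 747 and 736, and 353 on the input, at 1.14 ± 0.34 (limma adjusted p = 0.0124), with a negative value of −0.15 under cyclic loess. Eif2b5, the catalytic subunit, had 281 and 200, 224 and 133, and 91.5, at 1.11 ± 0.44 (adjusted p = 0.0469), and it did not pass without deiminated replicate 1 (0.99), deiminated replicate 2 (1.23) or non-deiminated replicate 1 (0.93). Eif2b3, the gamma subunit, had 40.1 and 18.4, 69.2 and 59.5, and 242 on the input, at −2.40 ± 0.62 (adjusted p = 0.00618). Bound and input signals did not overlap for these 3 genes. Eif2b1 (0.74 ± 0.55) and Eif2b2 (0.35 ± 0.36, and −0.78 after quantile normalisation) did not pass. A further Eif2b2 probe set was called lower, at −2.52 (adjusted p = 0.0299).

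The 4 kinases that phosphorylate eIF2 under stress differed widely. Eif2ak3 (PERK), the sensor of unfolded proteins in the endoplasmic reticulum, had 120 and 132, 145 and 90.3, and 6.32 on the input, at 3.57 ± 0.56 (limma adjusted p = 2.78e-04). Eif2ak2 (PKR), the sensor of double-stranded RNA, had 28.6 and 36, 15.3 and 45.6, and 720 on the input, at −4.43 ± 0.66 (adjusted p = 1.94e-04). The bound signals of these 2 probe sets lay on opposite sides of the input. Eif2ak3 had 2 further probe sets that were not kept and went the other way, with 0.779 to 5.83 on the bound arrays against 366 in the input, and 1.61 to 14 against 165. Eif2ak1 (HRI), the haem-regulated kinase, had 102 and 98.5, 154 and 103, and 122, at −0.12 ± 0.47, and Eif2ak4 (GCN2), the sensor of uncharged tRNA, had 27 and 48.5, 11.8 and 55.5, and 23.6, at 0.35 ± 0.91. For both of these probe sets, bound and input values overlapped. Another Eif2ak1 probe set was called lower, at −1.54 (adjusted p = 0.0281). Another of Eif2ak4 was called lower at −2.77 (adjusted p = 0.0177), kept only with the help of the input array.

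eIF3 is the large scaffold on which the small subunit complex is built, and 9 of its 11 measured genes were called higher and 0 lower, at a gene median of 2.10. By probe set, 14 of 23 were called higher (60.9%) and 4 lower (17.4%). Over all kept probe sets the shares were 26.8% and 29.8%, and among the brightest 6756 they were 54% and 7.7%. The eIF3 probe sets were bright, with a median of the mean log2 signal of 8.67 against 7.58 for all members. Eif3a, its largest subunit, had 1430 and 1780 with the deiminated protein, 1610 and 1270 with the non-deiminated and 63.9 in the input, at 4.47 ± 0.35 (limma adjusted p = 1.06e-06). Eif3h, another subunit, had 694 and 598, 741 and 478, and 28.1, at 4.27 ± 0.38. Eif3m, also a subunit, had 244 and 197, 264 and 246, and 11.1, at 3.97 ± 0.43. In the probe sets that stand for the 9 higher genes, the input was the lowest of the 5 arrays. Other probe sets of Eif3a (−3.47) and Eif3m (−2.26) were called lower, with the input as the highest array. Eif3e was higher by 3.45 and Eif3k by 2.84, and Eif3f, whose 5′ window is shown above, had 4230 and 4340, 3510 and 4530, and 965 on the input, at 2.10 ± 0.39. Eif3d (1.83), Eif3c (1.70) and Eif3b (1.03, not passing without deiminated replicate 1 at 0.92) were the remaining 3. Eif3i, a subunit built of WD repeats, had 7100 and 6640, 5990 and 8970, and 7600, at −0.10 ± 0.48, and Eif3l had 293 and 262, 224 and 244, and 193, at 0.39 ± 0.37. Neither passed, and Eif3i had a positive value of 0.05 without non-deiminated replicate 1, while Eif3l had −0.24 under cyclic loess. Further Eif3l probe sets were called lower, at −2.29 and −3.69, the latter kept only with the help of the input array. A second Eif3i probe set was called higher, at 0.99.

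The eIF4 factors bind and unwind the mRNA, and 5 of 9 measured genes were called higher and 1 lower. The helicase genes were higher: Eif4a1, the general form, had 1690 and 1620, 1470 and 2020, and 298 on the input, at 2.48 ± 0.35 (limma adjusted p = 1.25e-04). Eif4a2, the form enriched in brain, had 2960 and 2770, 3040 and 1720, and 128, at 4.28 ± 0.39 (adjusted p = 3.51e-06). Their cofactors were also called, Eif4h with 8820 and 7350, 8600 and 6690, and 667 on the input, at 3.54 ± 0.43, and Eif4b with 624 and 1020, 678 and 725, and 329, at 1.17 ± 0.37. In the probe sets that stand for these 4 genes every bound array lay above the input, but Eif4b had −0.10 under cyclic loess and did not pass without deiminated replicate 2 (1.00).

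Of the cap-binding proteins, Eif4e, the canonical one, had 1010 and 738, 1170 and 744, and 166 on the input, at 2.41 ± 0.37 (limma adjusted p = 2.61e-04). Eif4e3, a paralogue, had 445 and 609, 422 and 446, and 1570, at −1.71 ± 0.35 (adjusted p = 0.00159), with a second probe set at −2.64. Eif4e2, which represses bound mRNAs, had 205 and 201, 127 and 189, and 232, at −0.38 ± 0.41, and turned positive after quantile normalisation (0.23) too. So 1 of the 3 paralogues was called in each direction and 1 in neither, by the probe sets that stand for them. Further Eif4e probe sets were all negative, at −0.28, −0.41 and −2.14, and the last was called lower (adjusted p = 0.0244). A further Eif4e2 probe set was also called lower, at −1.80 (adjusted p = 0.0491). Of the scaffold genes, Eif4g2 had 7610 and 13000, 6910 and 14500, and 5140 on the input, at 0.95 ± 0.57 (adjusted p = 0.163), and passed without non-deiminated replicate 1, at 1.22. Further probe sets of Eif4g2 were called higher, at 2.28 (adjusted p = 7.56e-04) and 2.20 (adjusted p = 0.00333), and its dimmest kept one had 0.24. Eif4g3 had 311 and 363, 315 and 329, and 203, at 0.68 ± 0.36, while a second probe set of it was called lower, at −2.24. Both scaffold genes had negative values under cyclic loess, −0.61 and −0.14.

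The 4E-binding proteins, which compete with the scaffold for eIF4E, held 2 of the 6 lower genes. Eif4ebp1 had 97.2 and 77.2, 73.3 and 104, and 403 on the input, at −2.16 ± 0.46 (limma adjusted p = 0.00229). Eif4ebp2, the main brain form, had 99.4 and 94.1, 105 and 111, and 446, at −2.08 ± 0.43 (adjusted p = 0.0017), while a second probe set of it had 1.94 ± 0.55. Eif4enif1, the transporter that carries eIF4E into the nucleus, had 236 and 329, 258 and 233, and 173, and did not pass at 0.59 ± 0.38. Both eIF5A genes were called higher. Eif5a had 5930 and 5350, 6140 and 7160, and 218 on the input, at 4.78 ± 0.39 (adjusted p = 1.50e-06). Eif5a2 had 267 and 223, 279 and 161, and 7.05, at 4.37 ± 0.48 (adjusted p = 1.60e-05). In the probe sets that stand for both genes, all bound arrays lay far above the input. A second Eif5a probe set had 0.23 without passing.

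The same array could place probe sets of 1 gene on opposite sides of the input, so gene directions depend on the probe set read. Of 35 genes with at least 2 kept probe sets (101 probe sets), 10 had only positive differences, 4 only negative ones and 21 had both signs. In 8 genes probe sets were called in both directions: Eif2a, Eif2d, Eif2s2, Eif3a, Eif3m, Eif4e, Eif4ebp2 and Eif6. Of the 33 member probe sets that were not kept, 22 had all bound arrays under the input and 1 had all above it. The like share over all probe sets that were not kept was not computed. Without a signal filter the whole array also leaned this way, with 16321 of 45037 probe sets called lower and 7046 higher, at a median of −0.92. The widest spans among kept probe sets were those of Eif2s2, from −3.95 to 5.95 over 6 probe sets, and Eif3a, from −3.47 to 4.47 over 4. In Eif3a the lower probe set had 81.9 and 57.6, 112 and 18.4, and 672 on the input. Spans were 6.23 for Eif3m, 5.86 for Eif6, 4.58 for Eif4ebp2 and 4.55 for Eif4e. The other 13 genes with both signs were Eef1d, Eif1ax, Eif2ak4, Eif2b2, Eif2s3x, Eif3c, Eif3i, Eif3l, Eif4b, Eif4e2, Eif4ebp1, Eif4g3 and Eif5. Eif4h was called higher by all 4 of its probe sets (1.44 to 3.64), Eif3e by all 3 (2.31 to 3.45), and Eif4a1 by both (2.48 and 3.21).

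The median span within a gene was 2.56 for bound minus input but 0.49 for deiminated minus non-deiminated, and it was wider in 34 of the 35 genes, Eif4e3 being the exception. By the probe set suffix, which marks how far its oligonucleotides match other transcripts, 12 of 23 with _a_at (shared by transcripts of 1 gene) were called higher and 1 lower. The counts were 29 and 18 of 77 for the plain _at type, 5 and 0 of 6 for _s_at (shared by several transcripts) and 7 and 4 of 16 for _x_at (partly matching other transcripts). Over all kept probe sets 26.8% were higher and 29.8% lower, and shares by suffix over the array were not computed. These classes also differed in brightness, with median mean log2 signals of 8.73 (_a_at), 6.91 (_at), 9.17 (_s_at) and 9.51 (_x_at). A link of suffix to direction was not tested. The sequences of the oligonucleotides and their positions along the transcripts were not used here.

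**Figure D3:**
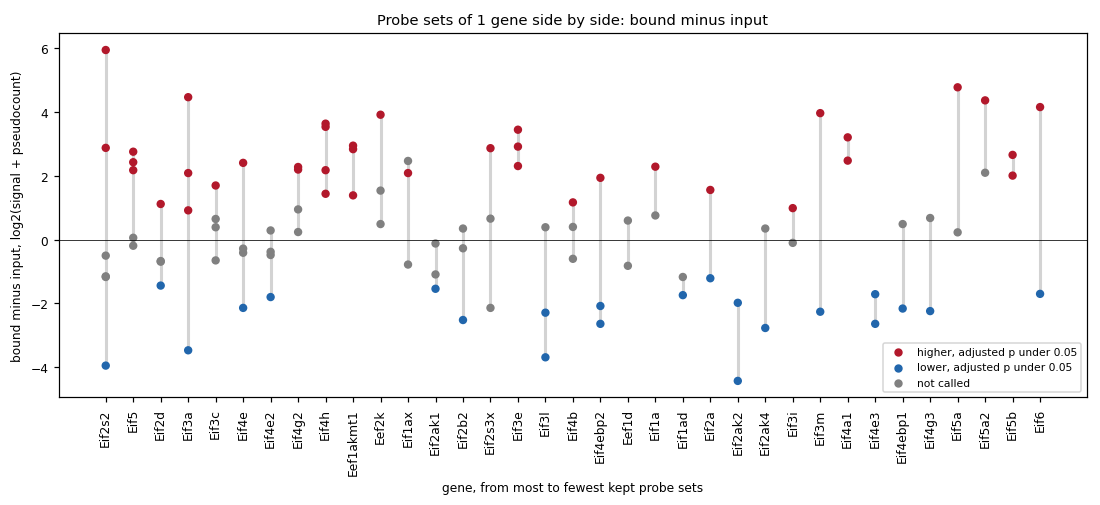
Bound minus input on the log2(signal + pseudocount) scale for each kept probe set of the 35 genes with at least 2, genes along the horizontal axis from most to fewest probe sets, grey lines spanning a gene and colours for called higher (red), lower (blue) or neither (grey). Eif2s2 spans −3.95 to 5.95, and 21 genes cross zero.

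Against input, the 2 bound groups gave like counts when taken apart, but both comparisons share the lone input array. For deiminated minus input 51 member probe sets were called higher and 21 lower (24.9% and 26.6% of all probe sets). For non-deiminated minus input 52 were higher and 18 lower (24.7% and 25.7% of all). Eef1a2 had 4.85 in the first comparison and 5.07 in the second, Eif5a 4.66 and 4.90, Eif3a 4.55 and 4.40, and Eif2ak2 −4.32 and −4.54. Eif1ad was called lower against input for the deiminated protein (−1.48, limma adjusted p = 0.0361) and not for the non-deiminated protein (−0.87, adjusted p = 0.194), and Eif2b5 was called higher for the first alone (1.34 and 0.88). The direct comparison of the groups called neither gene.

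That direct comparison asks whether deimination changed which RNAs were bound. limma called 0 of 122 member probe sets, and 0 of all 27022 (0%). At an unadjusted p under 0.05 there were 3 members and 356 probe sets in all, and each of the 3 had an adjusted p of 0.9999. The members' differences ran from −1.83 to 1.55 with a median of 0.00, 61 positive and 61 negative. The groups did not overlap for 24 of 122 probe sets (19.7%), against 24.1% of all probe sets. All 24 belonged to initiation factors (24 of 107), and elongation factors gave 0 of 15, a difference that was not tested. With non-deiminated replicate 1 left out, 24 probe sets over the array passed limma's test, and with replicate 2 of that group left out 2 passed, with 0 members among them in either case.

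The elongation factor differences spanned less than those of initiation factors, but their intervals excluded a 2-fold change no more often. Eef1a1 differed by 0.07 ± 0.38 (95% interval −0.75 to 0.89), Eef1a2 by −0.22 ± 0.31 (−0.89 to 0.45) and Eef2 by −0.01 ± 0.32 (−0.70 to 0.68). Over the 15 elongation probe sets the range was −0.24 to 0.34, and over the 107 of initiation factors −1.83 to 1.55. The interval excluded a 2-fold change for 6 of the 15 (40%) and 43 of the 107 (40.2%). For Eef1a1, Eef1a2 and Eef2 the interval excludes a change of 2-fold in either direction, as it did for 49 of the 122 members (40.2%) and 24.2% of all probe sets. For the other 73 the interval reached a 2-fold change, so one of that size was not excluded. The median standard error was 0.40 among members and 0.48 over all probe sets.

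Of genes whose groups did not overlap, the largest differences were these. Eif2b3 gave 40.1 and 18.4 after deimination against 69.2 and 59.5 without it, a difference of −1.11 (−2.31 to 0.08). Eif2b1, the alpha subunit of eIF2B, gave 63.6 and 67.8 against 87.4 and 85.6, at −0.38 ± 0.49. Eif4e2 followed at 0.38 ± 0.37 and Eif2ak1 at −0.32 ± 0.42. None of these passed, and each had an adjusted p of 0.9999 in limma. The 3 probe sets with an unadjusted p under 0.05 were singled out after their values were seen. An Eif3l probe set gave 18.3 and 18.1 against 44.9 and 77.7, at −1.50 ± 0.59. An Eif4e3 probe set gave 106 and 7.5 against 102 and 148, at −1.83 ± 0.78, and an Eif2b2 probe set gave 109 and 83.4 against 73 and 10.7, at 1.55 ± 0.71. In the last 2 a single array stood far below its partner. The probe sets that stand for these 3 genes had 0.24 (Eif3l), 0.26 (Eif4e3) and −0.12 (Eif2b2), the opposite sign in each.

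Each bound group held an array with lower hybridisation controls (replicate 1 of each) and an array with higher ones (replicate 2). Taken within the lower and the higher level, Eef1a2 had −0.51 and 0.07, Eif4a2 −0.04 and 0.68, Eif2s3x −0.49 and 0.55, and Eif2a 0.35 and −0.96. Eif2b3 kept its direction, at −0.73 and −1.49. Over the 56 genes the sign was the same at both levels for 21, a value that rounds to zero counting as neither.

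**Figure D4:**
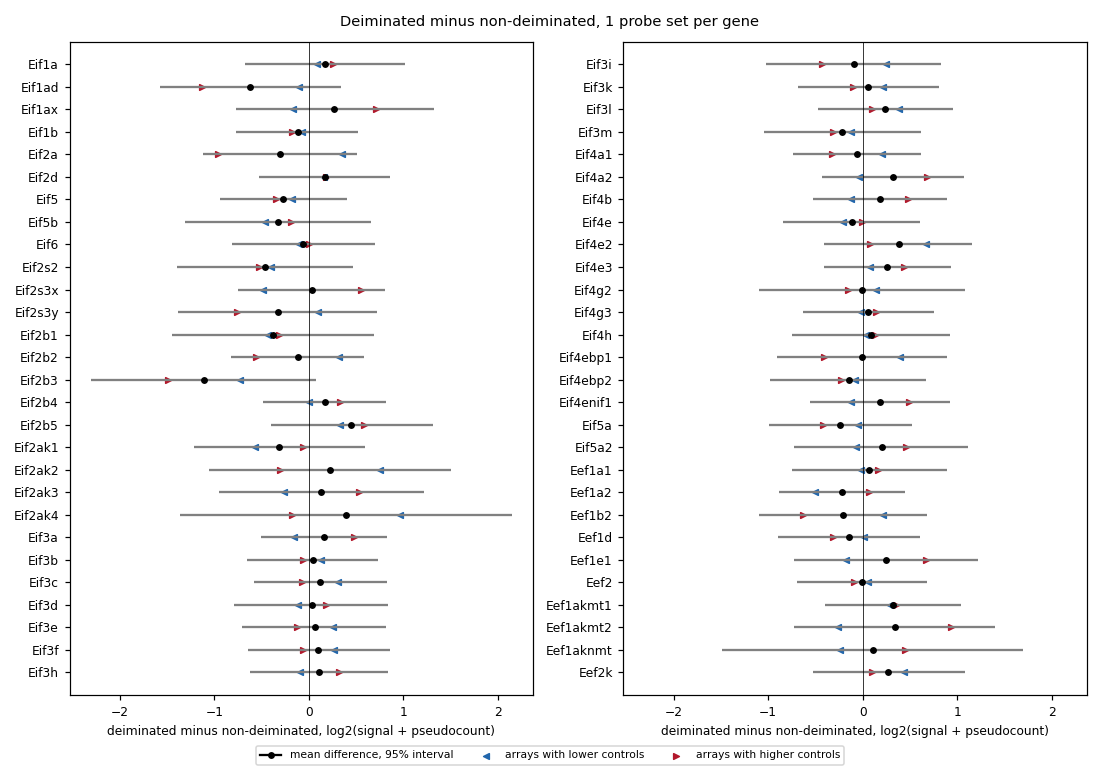
Deiminated minus non-deiminated on the log2(signal + pseudocount) scale for the probe set that stands for each of the 56 genes (black points, n = 2 and 2) with 95% intervals from limma (grey lines), beside the difference between the arrays with lower (blue) and with higher (red) hybridisation controls. Every interval includes zero, and Eif2b3 has the point farthest from it.

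Other genes of translation, taken from 6 lists written from textbook knowledge, gave 26 higher, 12 lower and 39 neither of 77 measured genes in bound against input, at a median of 0.52, and 0 called for deimination. The shares of 33.8% higher and 15.6% lower stand beside 31.6% and 24.8% of all genes, whose median was 0.12. Cytosolic aminoacyl-tRNA synthetases, which charge the tRNAs that eEF1A carries, had 10 higher and 1 lower of 20, at a median of 0.90. Termination, recycling and surveillance factors had 5 and 1 of 11 (1.03), and poly(A)-binding proteins with cap-translation regulators 5 and 4 of 16 (0.78). Mitochondrial translation factors had 3 and 1 of 9 (0.23), mTOR and eIF2 signalling genes 3 and 4 of 13 (−0.14), and the enzymes that modify eIF5A and eEF2 had 0 and 1 of 8 (0.13). The 2 genes with the largest differences lay on opposite sides of the input. Qars, the glutaminyl-tRNA synthetase, had 600 and 926, 662 and 1470, and 29.2 on the input, at 4.69 ± 0.44 (limma adjusted p = 4.91e-06). Bzw2, a regulator of start codon choice, had 93.4 and 192, 135 and 154, and 7280, at −5.67 ± 0.42 (adjusted p = 8.23e-07).

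The pyrimidine runs in the windows around the annotated starts can be set beside these values. The 13 measured genes with a run had a median bound minus input difference of 2.10, with 8 called higher, and the 32 without one had 1.36, with 20 called higher. Genes with a run spanned from Eif2s3y at −0.37 to Eef1a2 at 4.96, and Eif2b5 (1.11), Eif4e (2.41) and Eif3m (3.97) were among them. These counts are a description of the windows and were not tested.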

How the data were processed

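Brain RNA of 5 samples was measured on 5 arrays of 45101 probe sets, of which 64 were controls. Per the submitters' processing notes the deposited signal intensity values were made with MAS5 (version not given in the sources used here), and the 2% trimmed mean is 150 on every array, so they had been scaled to a common level. Of the 45037 other probe sets, 34945 had 1 gene symbol, 932 several and 9160 none. The 155 member symbols were matched to RefSeq by Entrez identifier, and 0 changed.

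Values were used as log2(signal + 4.18), where the pseudocount is the median signal of 41.8 over 10, with no further normalisation. limma 3.58.1 (R 4.3.3; lmFit, and eBayes with a trend) fitted 1 model with a mean per group, which left 2 residual beside 10.91 prior degrees of freedom. As there was 1 input array, its spread was taken to be that of the bound arrays. Precision is limited by the number of arrays. The steps were tested on simulated data. Replicates were numbered in sample order, which pairs none.

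Every member of eIF2, eIF4, eEF1A, eEF1B and eEF2 is named, in other roles the highest and lowest difference, with the 4 largest non-overlapping differences for deimination, genes with probe sets of both signs, and 2 related genes. Other members given were chosen after their values were seen. The members and lists were chosen with earlier results of these data known. Alternatives covered pseudocounts of 1.05 and 16.7, filters, scaling, variance models, blocks, the bound arrays alone, the median probe set and leaving out each bound array.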

Additional observations from a re-analysis of the deposited data

How the results depend on the processing

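With 1 input array, no alternative for a comparison against input could leave it out, and the arrays give no detection calls, so a dim signal has no measured limit. For deiminated against non-deiminated, leaving out 1 array gave 0 to 24 called probe sets over the array and 0 members, and the other alternatives gave 0. Without a signal filter 23367 probe sets were called for bound against input and 21261 for deiminated against input. Scaling to the hybridisation controls left 101 for bound against input and 0 for either group against input, at a median standard error of 2.43. Leaving out an array gave 9226 to 16695 for deiminated against input. Members called higher numbered 2 (bound), 0 (deiminated) and 0 (non-deiminated) under that scaling, and genes 2. Members called lower in these comparisons numbered 13, 13 and 11 with the stricter filter of the 60th percentile, 3, 2 and 3 after median centring and 0, 0 and 0 after control scaling, and leaving out an array gave 12 to 28 for deiminated against input. Genes called lower numbered 2 after median centring, 11 under cyclic loess and 0 after control scaling. The median over all probe sets moved from −0.20 to 0.50 (quantile), 1.25 (median centring), −0.26 (cyclic loess) and 4.33 (control scaling), and that of members from 0.66 to 1.25, 2.11, 0.36 and 5.36. Of 945 gene values under alternatives 792 kept direction and call, 58 lost and 27 gained the call, 21 moved without a test and 47 reversed. Reversed under cyclic loess were Eef2 (−1.36), Eif2b2 (−1.03), Eif2b4 (−0.15), Eif2s3y (0.14), Eif3l (−0.24), Eif4b (−0.10), Eif4enif1 (−0.05), Eif4g2 (−0.61) and Eif4g3 (−0.14). Reversed under control scaling were Eef1d (4.61), Eef1e1 (4.73), Eif1ad (3.95), Eif1ax (4.54), Eif2ak1 (4.6), Eif2ak2 (0.78), Eif2b3 (2.60), Eif2s2 (1.5), Eif2s3y (4.21), Eif3i (5.34), Eif4e2 (4.64), Eif4e3 (3.67), Eif4ebp1 (3.01) and Eif4ebp2 (3.12). Reversed under median centring were Eef1d (0.64), Eef1e1 (1.03), Eif1ad (0.28), Eif1ax (0.68), Eif2ak1 (1.34), Eif2s3y (1.09), Eif3i (1.36) and Eif4e2 (1.08). With the median of a gene's probe sets, Eif1ax (2.09), Eif2ak4 (−1.21), Eif2b2 (−0.27), Eif2d (−0.68), Eif3i (0.44), Eif3l (−2.29), Eif4e (−0.34) and Eif4g3 (−0.78) reversed. Under quantile normalisation Eef2 (−0.98), Eif2ak1 (1.23), Eif2b2 (−0.78), Eif2s3y (1.01) and Eif4e2 (0.23) reversed. Leaving out non-deiminated replicate 1 reversed Eif3i (0.05, range −0.25 to 0.05 over the arrays left out), and leaving out non-deiminated replicate 2 reversed Eif2ak1 (0.02) and Eif2ak4 (−0.13, range −0.13 to 0.82). The cause of these changes was not tested. For deiminated against non-deiminated, a block for the protein name in the sample titles and a block for the control level gave 0 called probe sets each, with 316 and 1005 at an unadjusted p under 0.05. Replicate numbers were given in sample order and pair nothing, so they were not used as a block.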
